A study of Mus musculus with 12 samples.

Results

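The genes described here are 10 components of the transforming growth factor β (TGFβ) pathway that carry its signal to the nucleus or restrain it: Smad2, Smad3, Smad4, Smad7, Ski, Skil, Smurf2, Pmepa1, Bambi and Tgif1. They were taken by name from a table of read counts for 54352 annotated genes, and all 10 had a row and passed the filter on low counts in every comparison. The libraries came from primary fibroblasts grown out of the adventitia, the outer coat of the vessel, of the ascending or the descending aorta of C57BL/6 mice that the labels give as 14 weeks old. No transgene, deletion or Cre was named for any group. The study's methods give the aortic root with the ascending aorta as the source of the former and the descending thoracic aorta as that of the latter. Fibroblasts of both sites were each cultured either as controls or with TGFβ at 10 ng/mL for 48 h, with 3 libraries in each of the 4 groups, 12 in all. The comparisons ask what TGFβ did to these genes at each site, whether the sites differed, and whether the change with TGFβ differed between sites. Cultured fibroblasts are a model of the aortic wall without its other cells, and the age of the mice and the number of passages are not given alike throughout the sources. Whether the 3 libraries of a group came from separate mice is not given in the sources used here, so p-values measure the spread between these samples, which may be technical. RNA was measured in bulk, where fewer cells of a type and less RNA per cell cannot be told apart.

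TGFβ binds paired type I and type II receptors, and the activated type I receptor phosphorylates the receptor-regulated SMADs, Smad2 and Smad3. These join the common partner Smad4 and enter the nucleus, where they act on target genes together with co-activators or co-repressors. Several targets of the pathway act back on it: Smad7 occupies the receptor and brings ubiquitin ligases such as Smurf2 to it, Ski, Skil and Tgif1 are nuclear co-repressors of SMADs, Pmepa1 is a membrane protein that keeps receptor-regulated SMADs away from the receptor, and Bambi is a receptor-like protein without a kinase domain. In fibroblasts the pathway is best known for driving matrix production and contractile genes.

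RefSeq promoter windows on GRCm38.p6 were at hand for 4 of the 10 genes, Ski, Smad3, Smurf2 and Tgif1, with 8 windows among them. The 250 bases ahead of the annotated start are shown for the member that fell most with TGFβ (Smad3, chr9:63757995-63758244), for the first window of a member that rose (Tgif1, chr17:70853533-70853782) and for the member with the smallest p between sites (Smurf2, chr11:106920716-106920965), each on the minus strand and 5′ to 3′. Capitals mark the SMAD box CAGAC or its complement GTCTG.
Smad3: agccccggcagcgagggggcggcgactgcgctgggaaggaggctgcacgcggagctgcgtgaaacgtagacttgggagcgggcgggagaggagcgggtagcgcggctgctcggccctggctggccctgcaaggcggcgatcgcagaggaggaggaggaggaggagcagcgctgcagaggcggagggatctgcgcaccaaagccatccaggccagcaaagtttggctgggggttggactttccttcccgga
Tgif1: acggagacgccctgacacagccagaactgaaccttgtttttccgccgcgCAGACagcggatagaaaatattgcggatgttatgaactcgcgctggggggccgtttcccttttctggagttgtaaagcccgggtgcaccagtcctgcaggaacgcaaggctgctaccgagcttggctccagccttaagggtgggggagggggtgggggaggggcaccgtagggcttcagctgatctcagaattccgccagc
Smurf2: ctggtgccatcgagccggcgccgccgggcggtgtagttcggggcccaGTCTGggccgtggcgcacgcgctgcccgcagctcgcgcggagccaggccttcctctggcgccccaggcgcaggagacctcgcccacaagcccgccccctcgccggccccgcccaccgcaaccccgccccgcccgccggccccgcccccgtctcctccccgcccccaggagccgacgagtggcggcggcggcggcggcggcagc

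Both strands were searched for the SMAD box CAGAC, the palindromic element GTCTAGAC (which holds the core AGAC on both strands but not the SMAD box as written here), the GC-rich element GGCGC and the AP-1 site TGANTCA, and overlapping matches were counted separately. The Smad3 window held none of these letters. The Tgif1 window shown held 1 CAGAC at position -201 from the start and no GGCGC, while the Smurf2 window held 1 CAGAC at position -203 and 6 GGCGC. The window of Ski held 7 GGCGC and no CAGAC. The other Tgif1 windows that held CAGAC were the second and the fourth. Over all 32851 windows of this length, 42.2% held CAGAC, 0.167% held GTCTAGAC, 32% held GGCGC and 6.75% held TGANTCA, so that CAGAC and GGCGC are common letters in such windows. These matches are a description of sequence and were not tested for binding.

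Total counts ranged from 16250126 to 23892943 per library. The third descending control library stood apart: it had counts for 13031 genes, against 19337 to 20931 in the other 11, 11.02% of its counts were mitochondrial, against 0.703% to 1.03%, and its mean correlation with the other descending controls was 0.875, against at least 0.989 within each of the other 3 groups. It enters the comparison of TGFβ with control in descending cells, the comparison of sites in control cells and the interaction, and those results are given with and without it. Normalised level in what follows is CPM, a library's counts for a gene relative to its total, scaled by edgeR's trimmed mean of M-values. The 7 fibroblast markers summed to at least 11380 CPM in every library. Most of the sum was Col1a1 and Col1a2, which with Pdgfrb had higher means with TGFβ at both sites, whereas Pdgfra (184 and 55.2 CPM in the ascending groups), Dcn (197 and 85.4), Lum (17.7 and 2.28) and Thy1 (614 and 327) had lower means with TGFβ at both sites. The 5 endothelial markers summed to at most 2.20 CPM, with Tie1 at or below the floor of 3 counts in all 4 groups. The 6 smooth muscle markers summed to 1539 to 1655 CPM in ascending controls and 5056 to 5151 CPM with TGFβ, and to 2437 to 2518 CPM and 7900 to 8325 CPM in the same 2 descending groups. Acta2 made up most of these sums, with means of 1489 and 4937 CPM in the ascending groups, where Cnn1, Tagln and Smtn also had higher means with TGFβ. In those groups Myh11, a defining gene of mature smooth muscle, had means of 24.1 and 15.6 CPM and Des 2.99 and 1.18 CPM, the lower value being with TGFβ. In the descending groups Myh11 had means of 57.3 CPM in controls, 44.0 CPM without the third, and 74.7 CPM with TGFβ, and Des 1.76 and 0.665 CPM. The 5 macrophage markers summed to 51.1 to 341 CPM in ascending controls, 28.4 to 40.3 with TGFβ, and 25.5 to 45.0 and 13.5 to 25.8 in the descending groups. Markers of mesothelium (3 genes, 16.2 to 40.0 CPM) and of Schwann cells (3 genes, 4.69 to 7.65 CPM) were present in ascending libraries and lay at or below 1.69 and 1.13 CPM in descending ones, with Lrrn4 and Sox10 at the floor in both descending groups. Adipocyte markers (3 genes) ran the other way, at 0.0473 to 4.95 CPM in ascending and 9.74 to 28.6 CPM in descending libraries. The part of these marker differences in the results below was not tested.

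In ascending fibroblasts TGFβ raised 6 of the 10 genes and lowered 2. The rises were led by Pmepa1, 5.23-fold, Skil, 3.23-fold, and Tgif1, 2.03-fold, followed by Bambi and Smad7, each 1.43-fold, and Smurf2, 1.17-fold. Smad3 was 1.77-fold lower and Ski 1.09-fold lower, while Smad2 and Smad4 did not pass the test. These calls are at an adjusted p under 0.05 (edgeR's quasi-likelihood test, Benjamini-Hochberg over 13917 genes), and they stand against a background in which 55.8% of all genes tested were called, 28.2% higher and 27.6% lower. The median log2 fold change was 0.37 over the 10 members and -0.0044 over all genes tested. In a fit that pooled the spread of all 12 libraries, the third descending control included, 5 members were called, against 2338 of 14637 genes. Smad7 (edgeR adjusted p = 0.199), Ski (0.622) and Bambi (0.783) lost their calls there with little change in fold, as calls fell over all genes.

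In descending fibroblasts 4 of the 10 genes were called with all libraries: Pmepa1, 4.36-fold, Skil, 2.94-fold, and Tgif1, 2.30-fold, were higher, and Smad3 was 2.39-fold lower. The background was 8.07% of 13825 genes, 3.59% higher and 4.48% lower. Without the third control library 5 were called, Smad7 being added at 1.52-fold higher, against a background of 52.9% of 14311 genes, 26.6% higher and 26.3% lower. The median log2 fold change of the members was 0.46 with that library and 0.17 without it, and that of all genes 0.021 and -0.012. Leaving out any single TGFβ library while keeping the third control left 1 call, Pmepa1, where 213 to 218 of all genes were called. Leaving out the first or second control ended the call of Skil (edgeR adjusted p = 0.0641 and 0.0863), where 474 and 371 of all genes were called.

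**Figure D1:**
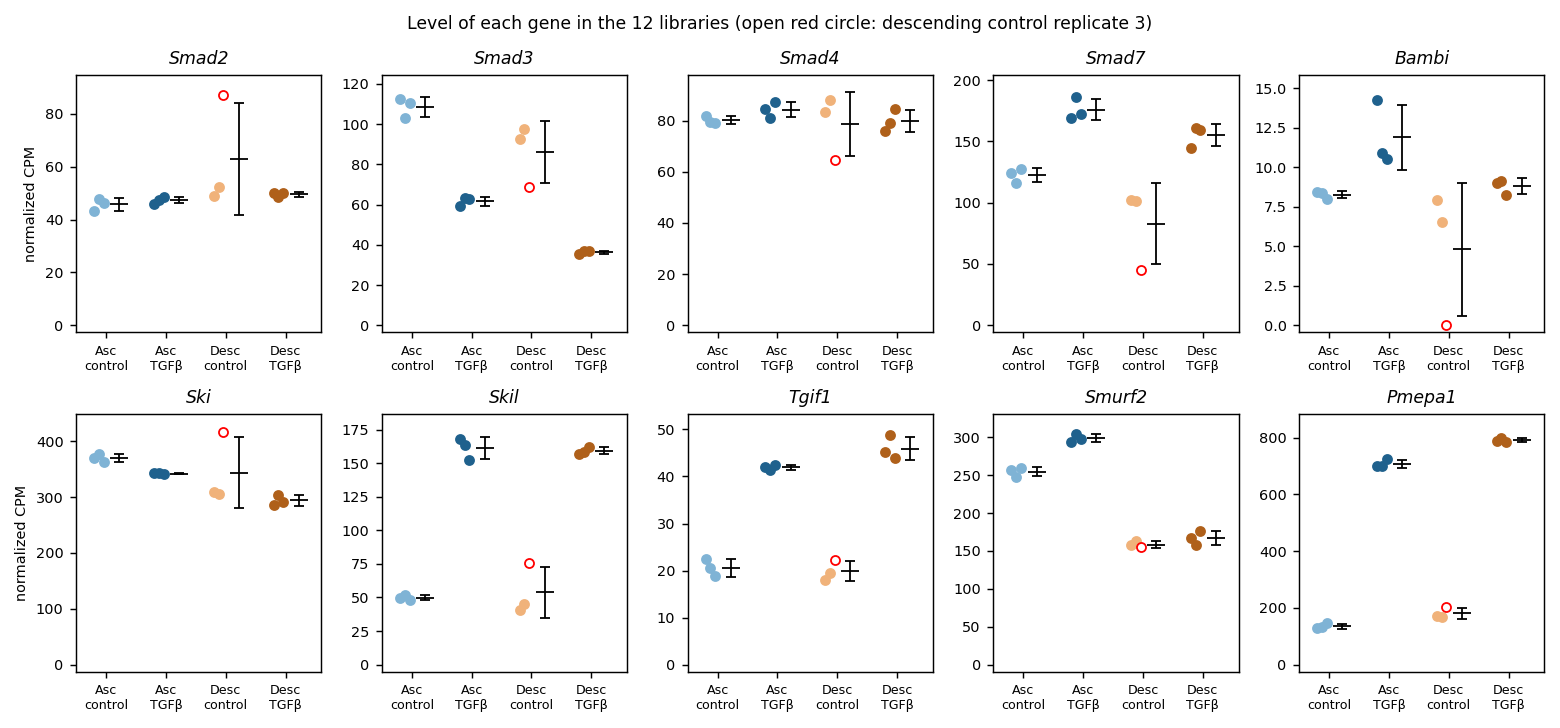
Normalised CPM (linear axis from 0) of the 10 genes in each of the 12 libraries by group, with the mean and SD of 3 libraries at the right of each group. Pmepa1 lies between 700 and 800 CPM with TGFβ and at or below 201 CPM in controls, Smad3 is lower with TGFβ at both sites, and the open red circle marks the third descending control, at 87.3 CPM for Smad2 and 0 for Bambi.

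Among the receptor-regulated SMADs, Smad2 was not called at either site. Its normalised level was 43.2, 47.8 and 46.5 CPM in ascending controls and 46.1, 47.6 and 48.6 CPM with TGFβ. Its descending level was 49.1, 52.3 and 87.3 CPM in controls, the last from the library that stood apart, and 50.1, 48.5 and 50.1 CPM with TGFβ. The groups overlapped at both sites. Its log2 fold change was 0.046 ± 0.052 (SE, adjusted p = 0.481) in ascending cells and -0.35 ± 0.25 (adjusted p = 0.441) in descending cells, or -0.029 ± 0.065 (adjusted p = 0.74) without the third control.

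Smad3, which binds DNA directly as Smad2's main isoform does not, fell at both sites. In ascending cells its level went from 113, 103 and 110 CPM in controls to 59.2, 63.1 and 63.0 CPM with TGFβ. The descending level went from 92.8, 97.3 and 68.7 CPM to 35.4, 36.8 and 36.7 CPM. The treated and control libraries did not overlap at either site, the third descending control included, and the 2 treated groups lay apart from each other. TGFβ changed it by -0.82 ± 0.046 on the log2 scale (SE, adjusted p = 1.54e-10) in ascending cells and -1.25 ± 0.16 (adjusted p = 0.01) in descending cells, or -1.38 ± 0.061 (adjusted p = 5.61e-18) without the third control.

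Smad4, the common partner, measured 81.9, 79.6 and 78.9 CPM in ascending controls and 84.7, 81.1 and 87.2 CPM with TGFβ. Its descending levels were 83.2, 88.2 and 64.5 CPM in controls and 76.0, 79.0 and 84.5 CPM with TGFβ. The groups overlapped at each site. Its log2 fold changes were 0.068 ± 0.043 (adjusted p = 0.202) in ascending cells and 0.015 ± 0.15 (adjusted p = 0.966) in descending cells, and the latter turned to -0.098 ± 0.059 (adjusted p = 0.168) without the third control.

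Smad7, the inhibitory SMAD, was higher with TGFβ in ascending cells, at 169, 186 and 172 CPM against 124, 116 and 127 CPM. Descending treated libraries gave 145, 161 and 159 CPM against 102, 102 and 45.1 CPM. The treated libraries lay above the controls without overlap at both sites, and the third descending control was the lowest of all 12. On the log2 scale the change was 0.52 ± 0.044 (adjusted p = 3.15e-08) in ascending cells. With all libraries the descending change was 0.89 ± 0.32 (adjusted p = 0.162), against 0.61 ± 0.056 (adjusted p = 1.58e-10) without the third control.

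The SMAD co-repressors Ski and Skil, which are related in sequence, went separate ways. Skil rose from 49.3, 51.8 and 48.2 CPM to 168, 164 and 152 CPM in ascending cells, and from 40.8, 44.9 and 75.8 CPM to 157, 158 and 162 CPM in descending cells. Every treated library lay above every control at both sites. The log2 fold change of Skil was 1.69 ± 0.048 (adjusted p = 1.73e-14) in ascending cells and 1.56 ± 0.26 (adjusted p = 0.0208) in descending cells, or 1.90 ± 0.060 (adjusted p = 1.58e-21) without the third control. Ski moved little, from 370, 377 and 363 CPM to 343, 343 and 341 CPM in ascending cells. That difference of -0.12 ± 0.029 on the log2 scale passed the test (adjusted p = 0.00235), since the 2 groups did not overlap and varied little. In descending cells Ski measured 308, 306 and 417 CPM in controls and 286, 304 and 292 CPM with TGFβ. The log2 fold change there was -0.23 ± 0.16 (adjusted p = 0.428), or -0.061 ± 0.049 (adjusted p = 0.309) without the third control.

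Tgif1, a homeodomain co-repressor, rose at both sites. Its level went from 22.4, 20.4 and 18.8 CPM to 42.0, 41.4 and 42.5 CPM in ascending cells, and from 17.9, 19.6 and 22.2 CPM to 45.2, 48.8 and 43.9 CPM in descending cells. Treated and control libraries did not overlap at either site. This rise was 1.02 on the log2 scale, with an SE of 0.064 (adjusted p = 5.37e-10), in ascending cells and 1.20 ± 0.14 (adjusted p = 0.00687) in descending cells, or 1.30 ± 0.080 (adjusted p = 2.14e-14) without the third control.

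Smurf2, the ubiquitin ligase that Smad7 recruits, rose modestly in ascending cells, from 257, 248 and 260 CPM to 294, 305 and 298 CPM, without overlap. Its descending levels were 158, 163 and 155 CPM in controls and 167, 158 and 176 CPM with TGFβ, which overlapped. These changes were 0.23 ± 0.031 on the log2 scale (adjusted p = 1.18e-05) in ascending cells and 0.067 ± 0.11 (adjusted p = 0.748) in descending cells, or 0.061 ± 0.054 (adjusted p = 0.36) without the third control. A share of 0.143% of the 50-base stretches of its exons also lies in Gm27322, an overlapping gene on the same strand, and the other 9 members share no such stretch with another gene.

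Pmepa1, which keeps receptor-regulated SMADs from the receptor, changed most. Its level went from 127, 131 and 146 CPM to 700, 700 and 724 CPM in ascending cells, and from 171, 169 and 201 CPM to 789, 800 and 785 CPM in descending cells. The controls of both sites lay far below every treated library. In log2 units the rise was 2.39 ± 0.043 (adjusted p = 6.59e-17) in ascending cells and 2.12 ± 0.12 (adjusted p = 0.00117) in descending cells, or 2.22 ± 0.051 (adjusted p = 7.75e-25) without the third control.

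Bambi, the pseudoreceptor, was the lowest of the 10. Its ascending level was 8.43, 8.40 and 7.99 CPM in controls and 14.3, 10.9 and 10.5 CPM with TGFβ, from 164 to 273 counts per library. The groups did not overlap, and the first treated library lay above the others. The log2 fold change was 0.52 ± 0.12 (adjusted p = 0.00198). In descending cells the controls stood at 7.90, 6.51 and 0 CPM and the treated libraries at 9.04, 9.17 and 8.23 CPM. The count of 0 came from the third control, where the floor of 3 counts is 0.207 CPM. The log2 fold change was 0.86 ± 1.19 (adjusted p = 0.708) with that library and 0.29 ± 0.14 (adjusted p = 0.0829) without it, and no change was called in either fit.

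**Figure D2:**
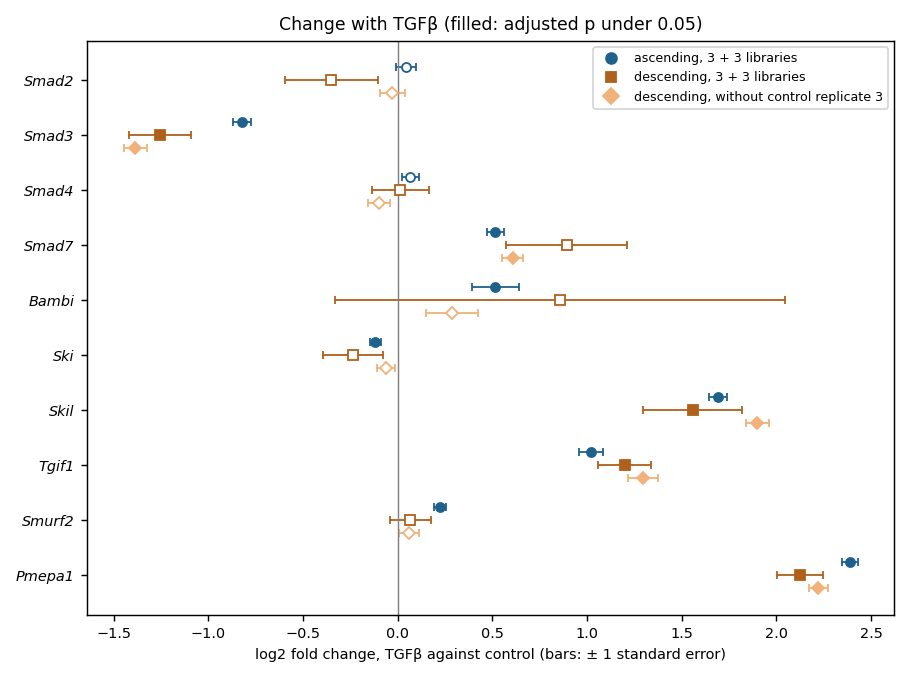
Log2 fold change of TGFβ against control for each gene in ascending cells (circles), descending cells (squares) and descending cells without the third control (diamonds), with bars of 1 standard error. Filled symbols passed an adjusted p of 0.05; Pmepa1, Skil and Tgif1 lie right of 0 and Smad3 left of it in all 3 fits, with Smad3 at -0.82, -1.25 and -1.38.

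Whether the response differed between sites was asked with an interaction term, positive where the change was more positive in ascending cells. With all 12 libraries none of the 10 members was called, against a background of 0.806% of 14637 genes (0.321% higher, 0.485% lower). The member with an unadjusted p under 0.05 was Smad3 alone, at 0.43 ± 0.17 (edgeR, adjusted p = 0.415). DESeq2 called 0 members, against 497 of 14637 genes, and limma voom with sample weights called 1, against 1979. Without the third descending control Smad3 was called, at 0.57 ± 0.073 (adjusted p = 4.18e-06), against a background of 13.5% of 15013 genes, 6.07% higher and 7.40% lower. Its fall was therefore smaller in ascending than in descending cells by that amount on the log2 scale.

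For the other 9 members no difference in response was called in that fit. Differences with an unadjusted p under 0.05 that missed the adjusted threshold were 0.17 ± 0.072 for Smad4 (adjusted p = 0.134), -0.20 ± 0.074 for Skil (0.0722), 0.17 ± 0.060 for Smurf2 (0.0674), 0.17 ± 0.062 for Pmepa1 (0.0722) and -0.27 ± 0.10 for Tgif1 (0.0916). Smad2 (0.079 ± 0.082), Smad7 (-0.087 ± 0.072), Ski (-0.053 ± 0.052) and Bambi (0.23 ± 0.18) had larger p-values. Smurf2 passed the test in ascending and not in descending cells, and the difference between those changes was itself not called in that fit. A fit added after seeing the data left out the third descending control and took the replicate number as a block. There the interactions of Smurf2, Skil and Pmepa1 were called besides Smad3 (edgeR adjusted p = 0.0396, 0.0488 and 0.0299), against 2024 of 15013 genes. With the block on all 12 libraries 0 members were called, against 50 of 14637 genes. Without a block, the values for Skil, Ski and Bambi had the opposite sign with the third control included, at 0.13, 0.11 and -0.32.

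The sites differed for several members. Smurf2 had the smallest p in each comparison of sites, at 248 to 260 CPM in ascending against 155 to 163 CPM in descending controls and 294 to 305 against 158 to 176 CPM with TGFβ, with no overlap in either condition. In control cells it was the only member called with all libraries, at 0.69 ± 0.097 on the log2 scale (adjusted p = 0.024), higher in ascending. The background was 2.65% of 14090 genes, 1.19% higher and 1.47% lower. Leaving out any 1 of the other 5 control libraries ended this call (edgeR adjusted p of 0.119 to 0.23), where 33 to 108 of all genes were called. Without the third descending control the value for Smurf2 was 0.68 ± 0.043 (adjusted p = 3.2e-08).

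Without that library 6 members were called in control cells, against 31.6% of 14644 genes, 16.4% higher and 15.2% lower. Besides Smurf2, the genes higher in ascending cells were Ski (0.28 ± 0.038, adjusted p = 5.73e-05), Smad7 (0.28 ± 0.053, adjusted p = 0.00106), Skil (0.23 ± 0.062, adjusted p = 0.0121) and Smad3 (0.21 ± 0.054, adjusted p = 0.00956). Pmepa1 was lower in ascending cells by -0.32 ± 0.057 (adjusted p = 0.000645). The same 5 differences with all libraries were 0.11 for Ski, 0.57 for Smad7, -0.11 for Skil, 0.34 for Smad3 and -0.42 for Pmepa1, with no call among them. Smad2, Smad4, Bambi and Tgif1 were not called in either fit. With all libraries the value for Bambi, 0.78 ± 1.21, was larger than that for Smurf2 and rested on the count of 0 in the third descending control, and without that library it was 0.21 ± 0.14.

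Under TGFβ, where the library that stands apart has no part, 6 members were called between sites, against 36.3% of 13678 genes, 18.1% higher and 18.2% lower. Smurf2 (0.84 ± 0.042, adjusted p = 4.84e-16) and Smad3 (0.77 ± 0.054, adjusted p = 1.37e-12) differed most. Smad3 stood at 59.2 to 63.1 CPM in ascending and 35.4 to 36.8 CPM in descending cells. Bambi (0.43 ± 0.12, adjusted p = 0.00489), Ski (0.22 ± 0.037, adjusted p = 1.71e-05) and Smad7 (0.19 ± 0.046, adjusted p = 0.00172) were also higher in ascending cells. Pmepa1 was lower there (-0.16 ± 0.034, adjusted p = 0.000465), at 700 to 724 CPM against 785 to 800 CPM. Without the first ascending TGFβ library the call of Bambi was lost (edgeR adjusted p = 0.0747). With the spread of all 12 libraries pooled only Smurf2 and Smad3 were called, against 1106 of 14637 genes. The values for the 4 members not called were 0.020 ± 0.043 for Skil, -0.13 ± 0.057 for Tgif1 (adjusted p = 0.0827), -0.062 ± 0.053 for Smad2 and 0.080 ± 0.048 for Smad4.

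**Figure D3:**
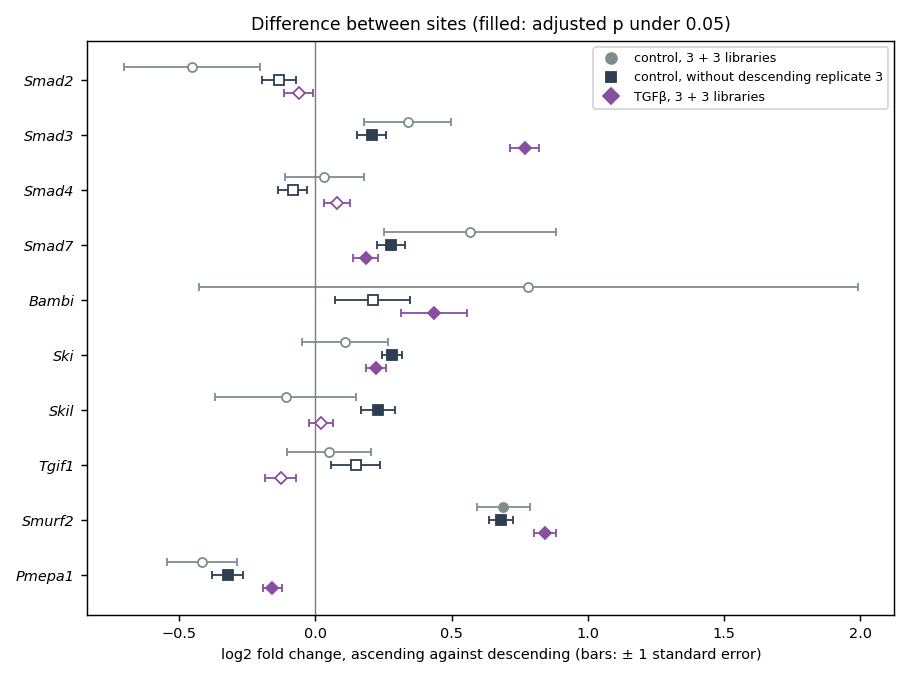
Log2 fold change of ascending against descending cells for each gene in controls (circles), controls without the third descending library (squares) and with TGFβ (diamonds), with bars of 1 standard error and filled symbols at an adjusted p under 0.05. Smurf2 lies right of 0 in all 3 fits, at 0.69, 0.68 and 0.84, and Smad3 lies farther right with TGFβ, at 0.77, than in controls.

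Levels can be compared between genes only per length, so counts were also divided by the total length of each gene's annotated exons in kilobases, a length that is too long where some exons are not used. In ascending controls Ski was the highest, at 66.5 ± 1.27 CPM per kb (SD, n = 3), followed by Smurf2 at 41.3 ± 1.02. Pmepa1 (27.4 ± 2.03) and Smad7 (27.1 ± 1.32) came next and did not differ beyond their spread, and Smad4 (21.6 ± 0.42) lay just above Smad3 (19.6 ± 0.89). Smad2 (5.22 ± 0.27) and Skil (5.14 ± 0.19) also lay within their spread of each other, above Tgif1 (3.65 ± 0.32) and Bambi (1.63 ± 0.048). With TGFβ the ascending order was led by Pmepa1 at 144 ± 2.81 CPM per kb, ahead of Ski at 61.5 ± 0.23 and Smurf2 at 48.5 ± 0.88. Skil, at 16.6 ± 0.85, then stood above Smad3, at 11.1 ± 0.40, whereas in controls it stood far below it. In descending cells with TGFβ Pmepa1 reached 161 ± 1.65, Skil 16.4 ± 0.27, Smad3 6.56 ± 0.14 and Smad2 5.64 ± 0.11 CPM per kb.

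Ratios within a library do not depend on how libraries are scaled. The ratio of Smad3 to Smad2 per kb was 4.13, 3.42 and 3.76 in ascending controls and 2.04, 2.10 and 2.05 with TGFβ. In descending cells it was 2.99, 2.95 and 1.25 in controls and 1.12, 1.20 and 1.16 with TGFβ. The balance of the receptor-regulated SMADs thus lay lower in every treated library than in every control of its site, and the third descending control lay close to the treated libraries.

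The ratio of Skil to Ski per kb was 0.0764, 0.0789 and 0.0763 in ascending controls and 0.281, 0.274 and 0.256 with TGFβ. Its descending values were 0.0759, 0.0843 and 0.104 in controls and 0.315, 0.299 and 0.319 with TGFβ. Ski thus stayed the more abundant co-repressor transcript per kb in every library, and the treated and control libraries did not overlap. The ratio of Smad7 to Smad3, an inhibitory to a receptor-regulated SMAD, was 1.35, 1.38 and 1.41 in ascending controls and 3.51, 3.61 and 3.35 with TGFβ. In descending cells it was 1.35, 1.28 and 0.806 in controls and 5.00, 5.36 and 5.32 with TGFβ, so that the treated libraries of the 2 sites did not overlap while the controls lay close together apart from the third descending library. With 3 libraries in a group an exact permutation test cannot go below a p of 0.1, and none is given for the ratios.

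**Figure D4:**
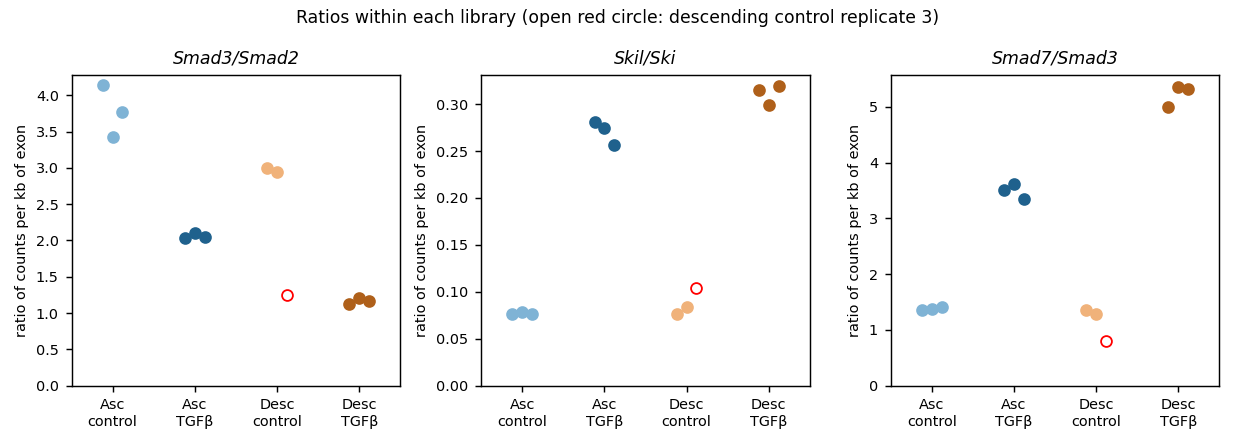
Ratio of counts per kb of exon (linear axis from 0) of Smad3 to Smad2, Skil to Ski and Smad7 to Smad3 in each library by group. The Smad3 to Smad2 ratio is 3.42 to 4.13 in ascending controls and 1.12 to 1.20 with TGFβ in descending cells, and the open red circle is the third descending control.

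Other genes of the pathway were counted from lists, of which 52 genes passed the filter on low counts in each comparison and 3, Foxh1, Skor1 and Skor2, did not. In ascending cells 38 of the 52 were called with TGFβ, 19 higher and 19 lower, against 55.8% of all genes tested. In the fit that pooled all 12 libraries 14 were called, against 2338 of 14637 genes. In descending cells 13 were called, 7 higher and 6 lower, against 8.07%, or 39, 19 higher and 20 lower, against 52.9%, without the third control. Without any single TGFβ library 6 to 7 were called, where 213 to 218 of all genes were. The SMADs of the bone morphogenetic protein (BMP) branch and its inhibitory SMAD, Smad6, gave no rise: in ascending cells Smad6 (-0.39 ± 0.036) and Smad9 (-0.35 ± 0.083) fell, and Smad1 (-0.14 ± 0.071) and Smad5 (0.077 ± 0.051) were not called. In descending cells none of these 4 was called with all libraries, and Smad6 (-0.56 ± 0.054), Smad9 (-0.60 ± 0.093) and Smad1 (-0.26 ± 0.080) fell without the third control. All 4 BMP target genes Id1 (-1.09 ± 0.048), Id2 (-1.39 ± 0.071), Id3 (-0.36 ± 0.034) and Id4 (-1.30 ± 0.19), inhibitors of basic helix-loop-helix factors, fell in ascending cells. In descending cells Id4 (-2.05 ± 0.24) was called with all libraries and all 4 without the third control. The 2 inhibitory SMADs therefore moved in opposite directions in ascending cells, Smad7 up and Smad6 down.

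Of 8 ligand and receptor genes 7 were called in ascending cells, 4 higher and 3 lower, against 55.8% of all genes. The ligand Tgfb1 rose (1.40 ± 0.074), as did the co-receptor Eng (0.40 ± 0.032). The co-receptor Tgfbr3 (-1.93 ± 0.060), the type I receptor Acvrl1 (-1.09 ± 0.046) and the type II receptor Tgfbr2 (-0.95 ± 0.048) fell. In descending cells Tgfb1 (1.99 ± 0.13) and Tgfb3 (0.99 ± 0.12) rose and Tgfbr3 (-2.40 ± 0.12) and Tgfbr2 (-0.82 ± 0.10) fell with all libraries. Without the third control all 8 were called in descending cells, 5 higher and 3 lower, against 52.9% of all genes, with Tgfb1 at 2.00 ± 0.078, Tgfb3 at 0.92 ± 0.052, Tgfbr3 at -2.38 ± 0.075 and Tgfbr2 at -0.81 ± 0.051. The change in Tgfb3 was the 1 interaction called in this list with all libraries (-1.08 ± 0.12, adjusted p = 0.00411), against 0.806% of all genes. Its ascending change was -0.086 ± 0.042 and not called. Without the third descending control 6 of the 8 interactions were called, 2 higher and 4 lower, against 13.5% of all genes, among them Tgfb3 (-1.01 ± 0.062, adjusted p = 3.6e-11), Tgfb1 (-0.59 ± 0.12, adjusted p = 0.000996) and Tgfbr3 (0.46 ± 0.098, adjusted p = 0.00196).

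Among 10 ubiquitin ligases, deubiquitinases and a phosphatase that act on SMADs or receptors, 5 rose and 5 fell in ascending cells, where 28.2% of all genes tested were called higher and 27.6% lower. Smurf1, the relative of Smurf2, rose by 0.38 ± 0.037, and the ligases Wwp1 (-0.58 ± 0.034) and Nedd4l (-0.81 ± 0.062) fell. In descending cells 1 of these 10 was called, Usp11 (-1.06 ± 0.23), where 3.59% of all genes were called higher and 4.48% lower, and 2 rose and 4 fell without the third control, where the shares were 26.6% and 26.3%. Of 8 adaptors and receptor partners 4 rose and 1 fell in ascending cells, beside the same shares of all genes. Ldlrad4, which is related to Pmepa1, rose by 0.99 ± 0.055 in ascending and 1.20 ± 0.12 in descending cells, and the co-receptor Nrp1 fell by -0.44 ± 0.044 and -1.20 ± 0.11. Without the third control the descending values were 1.19 ± 0.073 and -1.19 ± 0.061, and 5 of the 8 rose and 1 fell (26.6% and 26.3% of all genes), against 1 and 1 with it (3.59% and 4.48%). The change in Nrp1 differed between sites (interaction 0.76 ± 0.11, adjusted p = 0.0111, or 0.76 ± 0.075 and 7.37e-08 without that library). Of 8 tested nuclear co-factors of SMADs 1 rose, Ctbp2 (0.32 ± 0.046), and 2 fell, Sin3a (-0.25 ± 0.065) and Crebbp (-0.18 ± 0.071), in ascending cells, against 55.8% of all genes called. In descending cells none of the 8 was called with all libraries, against 8.07% of all genes, and 1 rose and 3 fell without the third control, against 52.9%.

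Of 10 direct TGFβ target genes 5 rose and 2 fell in ascending cells, where 28.2% of all genes were called higher and 27.6% lower. In descending cells 4 rose and 1 fell (3.59% and 4.48% of all genes), or 6 and 2 without the third control (26.6% and 26.3%). The matrix gene Ltbp2 rose by 2.97 ± 0.033 in ascending and 2.35 ± 0.31 in descending cells. Ctgf, a matricellular growth factor gene, rose by 1.65 ± 0.031 and 2.14 ± 0.14. Tgfbi, whose name comes from its induction by TGFβ, fell by -1.62 ± 0.17 and -2.56 ± 0.20. Without the third control the descending values were 2.08 ± 0.052 for Ltbp2, 2.03 ± 0.049 for Ctgf and -2.70 ± 0.10 for Tgfbi. Between sites 29 of the 52 genes were called under TGFβ, 10 higher and 19 lower in ascending cells, against 36.3% of all genes tested. In the fit that pooled all 12 libraries 6 were called, against 1106 of 14637 genes. In controls 2 were called with all libraries, among them Id4 (-3.51 ± 0.25, lower in ascending cells), against 2.65% of all genes, and 22, 7 higher and 15 lower, against 31.6%, without the third descending control. Leaving out any other control library left 0 or 1 of the 52 called, where 33 to 108 of all genes were.

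The genes whose log2 CPM ran most like that of Pmepa1, the member with the largest rise, over the 11 libraries without the third descending control were Fermt2 (Pearson r = 0.998), Csdc2 (0.998) and Ssr1 (0.998), among 14636 genes. Fermt2 stood at 103 ± 2.13 CPM in ascending controls and 207 ± 3.99 CPM with TGFβ, and Csdc2 at 2.00 ± 0.050 and 30.2 ± 1.39 CPM (SD, n = 3). Those most like Smad3, the member with the largest fall, were Rbpj (0.995), Runx1t1 (0.992) and Ninl (0.992). Rbpj, the DNA-binding factor of Notch signalling, measured 280 ± 3.31 CPM in ascending controls and 133 ± 3.74 CPM with TGFβ, and 75.3 ± 2.04 CPM with TGFβ in descending cells. These 11 libraries share 4 groups, so such correlations follow the group means and are a description.

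On GRCm38, by GENCODE vM21, the members are placed as follows. Smad3 (ENSMUSG00000032402.12) is at 9:63646767-63757994 on the minus strand, Pmepa1 (ENSMUSG00000038400.15) at 2:173224458-173276533 on the minus strand, Skil (ENSMUSG00000027660.16) at 3:31095058-31122577 on the plus strand, Ski (ENSMUSG00000029050.15) at 4:155154075-155222592 on the minus strand, Smurf2 (ENSMUSG00000018363.16) at 11:106820066-106920715 on the minus strand and Tgif1 (ENSMUSG00000047407.17) at 17:70844205-70853546 on the minus strand. Smad2, Smad4, Smad7 and Bambi all lie on chromosome 18. All 10 are annotated as protein-coding, and no exon of theirs overlaps a gene on the opposite strand.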

How the data were processed

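RNA was measured in 12 libraries of cultured primary adventitial fibroblasts. The deposited table holds raw read counts per gene symbol, 1 column per library. Per the study's methods and processing notes, the authors mapped read pairs to the mm10 build with STAR, counted them with featureCounts and compared groups with DESeq2. Versions, the strand setting and the treatment of reads matching several genes are not given in the sources used here. Groups were taken from the labels.

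Each comparison was fitted on its own libraries with edgeR 4.0.16 (R 4.3.3): filterByExpr (minimum count 10, minimum total 15), TMM scaling, quasi-likelihood F test and Benjamini-Hochberg adjustment over all genes tested, with calls at an adjusted p under 0.05. The interaction was fitted on all 12 libraries. Standard errors are the size of the log2 fold change divided by the square root of F. Plotted and listed CPM were scaled over all 12 libraries. For likeness of pattern, CPM were put on the log2 scale after a prior count of 2. The tests were tried on simulated counts with 200 genes changed 2-fold: in the comparison of TGFβ with control in ascending cells, edgeR recovered 200 of 200 among 13943 genes, with 5.66% false calls. The simulated counts had the same small spread in every gene and no library that stood apart. Few genes were changed, and none of the lowest expressed. This recovery was therefore easy, and it does not measure the error of the calls reported here. Alternatives were DESeq2 1.42.0, limma voom 3.58.1 with sample weights, DESeq2 size factors, other filters, a replicate block, a single fit of all libraries and leaving out each library. DESeq2, the block and the single fit without the third descending control were added after seeing the data.

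The members and the lists were chosen with earlier results of these data known. All 10 members are named, with up to 2 genes per list, comparison and direction by smallest adjusted p, every gene of lists of 5 or fewer, and the 3 genes most correlated with each of Pmepa1 and Smad3. A gene named by this rule in any comparison may be given in the others. Values of 1 gene that the rule names are not reported here. Counting intervals and the floor of 3 counts cover counting error only. Gene models came from GENCODE vM21 and promoter windows from RefSeq.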

Additional observations from a re-analysis of the deposited data

Results flagged for a closer look

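The change in Smad3 with TGFβ differed between sites in the fit without the third descending control, by a log2 interaction of 0.567 (edgeR quasi-likelihood test, SE 0.073, adjusted p = 4.18e-06), with the smaller fall in ascending cells. With all 12 libraries the interaction was 0.43 and was not called (adjusted p = 0.415). Over the alternatives tried, its value ran from 0.34 to 0.58, positive in each, with adjusted p from 3.14e-09 to 0.803. In the descending controls Smad3 stood at 92.8, 97.3 and 68.7 CPM, the last in the library with 11.02% mitochondrial counts. No sample was tested as an outlier within its group of 3.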

How the results depend on the processing

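For the change with TGFβ in ascending cells the count of members called stayed at 8 under every alternative except a fit of all 12 libraries, which gave 5. In descending cells it was 4, against 1 to 5 leaving out each library in turn. For the interaction the count was 0 and became 1 with limma voom with sample quality weights, 1 with DESeq2 without the third descending control, and 0 to 1 leaving out each library. For the site in controls the count was 1 and became 6 with voom, 0 with no filter on low counts, 2 in the fit of all 12 libraries, and 0 to 6 leaving out each library. It was 6 with DESeq2 and 6 in a fit of 11 libraries, both without the third descending control. For the site under TGFβ the count was 6, against 2 in the fit of all 12 libraries and 5 to 6 leaving out each library.

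Counts over all genes moved in partly other settings. For TGFβ in ascending cells they went from 7767 to 2338 in the fit of all 12 libraries. In descending cells they went from 1115 to 2531 with DESeq2, 7335 with voom, 3570 in the fit of all 12 libraries, 95 with the replicate block and 213 to 7576 leaving out each library. For the interaction they went from 118 to 497 with DESeq2, 1979 with voom, 56 with no filter, 50 with the replicate block and 25 to 2022 leaving out each library. For the site in controls they went from 374 to 1151 with DESeq2, 4392 with voom, 1545 in the fit of all 12 libraries, 0 with the replicate block and 33 to 4631 leaving out each library, and stood at 300 with no filter. For the site under TGFβ they went from 4963 to 1106 in the fit of all 12 libraries. With the replicate block and without the third descending control they were 7168 of 14311 in descending cells, 2024 of 15013 for the interaction and 4664 of 14644 for the site in controls.

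Of the 52 pathway genes, the count called in ascending cells went from 38 to 14 in the fit of all 12 libraries, and under TGFβ between sites from 29 to 6. In descending cells it went from 13 to 38 with voom, 25 in the fit of all 12 libraries, 5 with the replicate block and 6 to 39 leaving out each library. For the interaction it went from 3 to 7 with DESeq2, 15 with voom and 1 to 16 leaving out each library. For the site in controls it went from 2 to 10 with DESeq2, 21 with voom, 13 in the fit of all 12 libraries, 0 with the replicate block and 0 to 22 leaving out each library.

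Same-numbered libraries did not deviate together (correlations of -0.026 to 0.0655 over 12 pairs, none above 0.1, and in 5 of these 12 pairs, the 3 of the site comparison in controls among them, the best match was the own number), so the numbers were not taken as pairs. With a replicate block the counts were 8 for TGFβ in ascending cells, 1 in descending cells, 0 for the interaction, 0 for the site in controls and 6 for the site under TGFβ. With the replicate block and without the third descending control they were 5 for descending cells, 4 for the interaction (Smad3, Skil, Smurf2 and Pmepa1, the last 3 with edgeR adjusted p of 0.0299 to 0.0488) and 6 for the site in controls. The block moved the median log2 fold change of all genes to 0.102 in descending cells and 0.104 between sites in controls.

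Of 797 refitted log2 fold changes of the members, 701 kept their direction and side of the threshold, 29 kept their direction and lost a call, 34 kept it and gained one, and 33 changed sign, 6 of them, all for Skil, with a call. The sign changes concerned Smad4, Ski, Skil, Bambi and Tgif1, and the cause was not tested. In descending cells Smad4 (0.015) became -0.11 with voom, -0.0017 with at least 10 counts in every library, and, without the third descending control, -0.093 with DESeq2, -0.14 with the replicate block and -0.099 in the fit of 11 libraries, and it ran from -0.098 to 0.11 leaving out each library. In the interaction, the values with voom and, without that control, with DESeq2 and with the replicate block were -0.041, -0.070 and -0.060 for Ski, -0.19, -0.22 and -0.22 for Skil, and 0.17, 0.22 and 0.17 for Bambi. Leaving out each library, the interaction ran from -0.053 to 0.19 for Ski, from -0.20 to 0.29 for Skil, from -0.85 to 0.23 for Bambi and from -0.035 to 0.17 for Smad4. For the site in controls, the values with voom and, without that control, with DESeq2, the replicate block and the fit of 11 libraries were -0.092, -0.082, -0.073 and -0.095 for Smad4 and 0.21, 0.23, 0.25 and 0.22 for Skil. Leaving out each library they ran from -0.083 to 0.12 for Smad4, from -0.27 to 0.23 for Skil and from -0.019 to 0.15 for Tgif1. For the site under TGFβ, Skil ran from -0.0097 to 0.062.

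Depth limits Bambi most, with 0 to 273 counts per library, and the other members had at least 322.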

Other observations

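Cdkn1a and Cdkn2b, inhibitors of cyclin-dependent kinases that TGFβ is known to induce, differed between sites. Cdkn1a was not called with TGFβ in ascending cells (log2 fold change 0.036 ± 0.032, SE) and rose by 0.47 ± 0.10 in descending cells (edgeR adjusted p = 0.0442), or by 0.46 ± 0.049 without the third descending control. Its interaction was -0.44 ± 0.093 (adjusted p = 0.0692) with all libraries and -0.42 ± 0.056 (adjusted p = 6.78e-06) without that library. Cdkn2b rose by 0.62 ± 0.044 in ascending cells. Its descending value was 1.25 ± 0.34 (adjusted p = 0.0897) with all libraries and 0.95 ± 0.055 (adjusted p = 5.12e-15) without the third control, and its interaction was -0.63 ± 0.36 (adjusted p = 0.567) and -0.32 ± 0.066 (adjusted p = 0.0014). Under TGFβ both were lower in ascending cells, Cdkn1a by -0.89 ± 0.037 and Cdkn2b by -0.96 ± 0.043. Both were also lower there in controls without the third descending control, by -0.46 ± 0.040 (edgeR adjusted p = 8.33e-07) and -0.63 ± 0.056 (9.39e-07). With all libraries these control differences were -0.45 ± 0.096 (adjusted p = 0.0877) and -0.33 ± 0.34 (0.669).

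The type I receptor Tgfbr1 rose with TGFβ in ascending cells (0.36 ± 0.067). In descending cells it was not called with all libraries (-0.097 ± 0.34) and rose without the third control (0.39 ± 0.066, adjusted p = 9.24e-06), where its interaction was -0.025 ± 0.10 (adjusted p = 0.921). Tgfbr1 was lower in ascending than in descending controls without that library (-0.74 ± 0.085, adjusted p = 1.28e-05), whereas with it the value was -1.23 ± 0.35 (adjusted p = 0.196). It was also lower in ascending cells under TGFβ (-0.78 ± 0.051, adjusted p = 2.93e-13). Acvrl1, another type I receptor gene of the list, was higher in ascending cells under TGFβ (0.46 ± 0.057, edgeR adjusted p = 1.11e-07). In controls its difference was larger, at 0.85 ± 0.048 (adjusted p = 1.09e-08) without the third descending control. With all libraries it was 1.04 ± 0.21 and not called (adjusted p = 0.0711). Id4 was lower in ascending cells in both conditions, by -3.51 ± 0.25 in controls (-3.25 ± 0.093 without the third descending control) and -2.77 ± 0.16 under TGFβ.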
